A study of Mus musculus with 7 samples.

Results

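The E2F transcription factor family was measured in mammary tumours and control mammary glands of the mouse, by RNA sequencing of whole tissue pieces. The members were the 10 rows of each library's table whose gene symbol was E2f1 to E2f8, Tfdp1 or Tfdp2, out of 50600 genes per table. All 10 rows were found in all 7 tables. The study compared 4 tumours of ECD transgenic mice with 3 control glands. Tumours T1a and T1b were adenosquamous, T3 was a spindle cell tumour and T4 was papillary, and the glands were MG-1, MG-2 and MG-3. The submitters describe the 4 tumours as independent, while the names T1a and T1b share a number, and whether 1 mouse gave both is not stated. The sources used here name neither the promoter that drives the transgene nor the strain, the ages or the genotype of the control mice. The tables count the mouse Ecd gene, whose log2 fold change in the tumours was 0.30 (SE 0.26, adjusted p = 0.463 by edgeR's quasi-likelihood test).

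E2F proteins bind DNA as dimers with a DP partner and switch the genes of DNA synthesis on and off as a cell enters the cycle. In the textbook scheme E2F1, E2F2 and E2F3 activate when the retinoblastoma protein releases them, E2F4 and E2F5 carry the related pocket proteins to target genes in resting cells, and E2F6 represses without a pocket protein. E2F7 and E2F8 repress as well and bind DNA without a DP partner, and their genes are themselves targets of the activators.

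The libraries held 5420572 to 28638194 expected counts in the tumours and 5148436 to 35631302 in the glands. Genes of the mitochondrial genome took 18.3% to 32.6% of the counts in tumours and 48.4% to 64.8% in glands. All 8 adipocyte marker genes were lower in the tumours, with a summed level of 22.7 to 146 CPM (counts scaled to library size) in the tumours and 3042 to 6424 CPM in the glands. The summed level of 6 leukocyte markers was 72.6 to 2087 CPM in the tumours, against 92.3 CPM in MG-1, 471 in MG-2 and 84.4 in MG-3. The summed level of 8 skeletal muscle markers was 1.25 to 257 CPM in the tumours, against 15174 CPM in MG-1, 21.2 in MG-2 and 28087 in MG-3. The gland libraries thus held RNA of fat, and 2 of them RNA of muscle, beside the epithelium, whose 6 luminal markers summed to 289 to 2295 CPM in the tumours and 233 to 478 CPM in the glands. Of 6 squamous markers, Krt6a, a keratin of stressed and squamous epithelium, was at 349 and 235 CPM in the adenosquamous tumours T1a and T1b, 4.24 in T3 and 0.244 in T4, against 0, 0 and 2.32 CPM in the glands. Krt6a makes up nearly all of the list's sum in T1a, T1b and T3, but not in T4 or the glands. The other 5 stayed under 4 CPM in T1a and T1b, Krt10 was lower in both (0.766 and 0.952 CPM) than in every gland (1.32 to 5.31 CPM), and Lor was at 0 in all 7 libraries. In pieces of whole tissue, fewer cells of a type and less RNA per cell cannot be told apart.

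Sequence before the annotated starts of each gene was taken from RefSeq on GRCm38.p6, which gave an entry for 8 of the 10 members. The 250 bases before the start were searched on both strands for E2F site letters (TTTCCCGC, TTTGGCGC, TTTCGCGC or TTTGCCGC) and for the letters of the cell cycle homology region (TTTGAA or TTCGAA), an element of promoters bound by the DREAM and MuvB complexes. No match of one kind overlaps a match of the other in the windows shown. E2F letters stood before an annotated start of 3 of the 8 members, which is 37.5%, against 2.16% of the 27025 genes with an entry. The cell cycle homology letters stood before an annotated start of 3 of the 8 as well, against 19.6% of all genes. The only E2f1 window (chromosome 2, 154569427 to 154569676, minus strand) lies inside the gene model, which ends at 154569892. Both Tfdp2 windows also lie inside their gene. Sequence before the outer start of E2f1 and Tfdp2 was thus not searched. The windows of E2f8 and Tfdp1, which were called higher in the tumours, and of the E2F letter carriers E2f7 and E2f3 are shown because each holds matched letters. E2f2 held TTTGAA in its second window, 26 to 31 bases before the annotated start that ends that window. This E2f2 window, 136180532 to 136180781 on chromosome 4, lies inside the gene, which begins at 136172394. Capitals mark the matched letters, each window runs 5′ to 3′ on the gene's own strand, and the last base is the base before the start.
E2f8, chr7:48881597-48881846, minus strand: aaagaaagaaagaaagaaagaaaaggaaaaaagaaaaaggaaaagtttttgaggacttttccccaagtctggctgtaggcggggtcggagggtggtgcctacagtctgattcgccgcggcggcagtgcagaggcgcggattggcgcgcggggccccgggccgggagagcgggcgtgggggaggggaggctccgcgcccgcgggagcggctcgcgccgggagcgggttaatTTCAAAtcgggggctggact
E2f7, chr10:110745189-110745438, plus strand: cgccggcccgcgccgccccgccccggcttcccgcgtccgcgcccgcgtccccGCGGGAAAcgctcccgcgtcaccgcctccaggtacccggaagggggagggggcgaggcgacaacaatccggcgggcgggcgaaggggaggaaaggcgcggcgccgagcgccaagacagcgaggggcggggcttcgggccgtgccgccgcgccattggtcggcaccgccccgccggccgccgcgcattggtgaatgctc
E2f3, chr13:29986064-29986313, minus strand, the second of its windows: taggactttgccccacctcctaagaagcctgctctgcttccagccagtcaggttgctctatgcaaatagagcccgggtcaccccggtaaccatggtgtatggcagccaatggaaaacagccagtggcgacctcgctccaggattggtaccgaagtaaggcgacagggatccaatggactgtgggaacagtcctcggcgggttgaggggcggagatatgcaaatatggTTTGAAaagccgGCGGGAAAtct
Tfdp1, chr8:13338501-13338750, plus strand, the first of its windows: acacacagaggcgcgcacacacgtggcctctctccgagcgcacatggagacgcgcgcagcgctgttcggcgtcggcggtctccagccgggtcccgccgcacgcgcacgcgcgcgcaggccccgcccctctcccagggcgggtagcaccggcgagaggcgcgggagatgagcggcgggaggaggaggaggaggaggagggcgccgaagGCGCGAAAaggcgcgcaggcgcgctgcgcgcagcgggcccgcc
In the E2f3 window both kinds of letters lie close together, GCGGGAAA at 4 to 11 bases and TTTGAA at 18 to 23 bases before the start. The E2f8 window holds TTCAAA, which is TTTGAA on the other strand, 15 to 20 bases before the start and no E2F letters of the kind searched. In E2f7 the letters GCGGGAAA lie 191 to 198 bases before the start, and in Tfdp1 the letters GCGCGAAA lie 36 to 43 bases before it. A match is a description of the letters and not of binding.

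Across the family, 3 of the 10 members were higher in the tumours at an adjusted p under 0.05 and none was lower. The members that rose were E2f8, E2f2 and Tfdp1. Of the 14149 genes tested, 3.9% were higher and 4.57% lower by the same rule. Without the adjustment, 6 members were higher and 1 was lower at p under 0.05, against 15.8% and 13.1% of all genes. DESeq2 called 6 higher and 1 lower after adjustment, against 12.8% and 11.3% of all genes, and limma-voom called 4 higher and none lower, against 4.46% and 6.31%. All 10 members passed the filter on low counts. Their median log2 fold change was 1.25, against 0.12 over all genes tested. In 7 members every tumour lay above every gland, a pattern held by 16.3% of all genes, and in 1 member every tumour lay below every gland, which held for 13.2% of genes. The 2 adenosquamous tumours alone gave 1 member higher and none lower, against 5.01% and 5.36% of the 14708 genes tested in that comparison. At an unadjusted p under 0.05 they gave 5 and 1, against 14.7% and 15.2% of genes, and DESeq2 also called 5 and 1, against 11.9% and 12.3%. Limma-voom called 3 higher and none lower there, against 6.01% and 4.75%. P-values measure only the spread between these samples, which may in part be technical. The adipocyte sums and the mitochondrial share of counts, given above, also did not overlap between tumours and glands, and their part in the family's values was not tested. Without the mitochondrial genes in the library sizes the same 3 members were called.

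**Figure D1:**
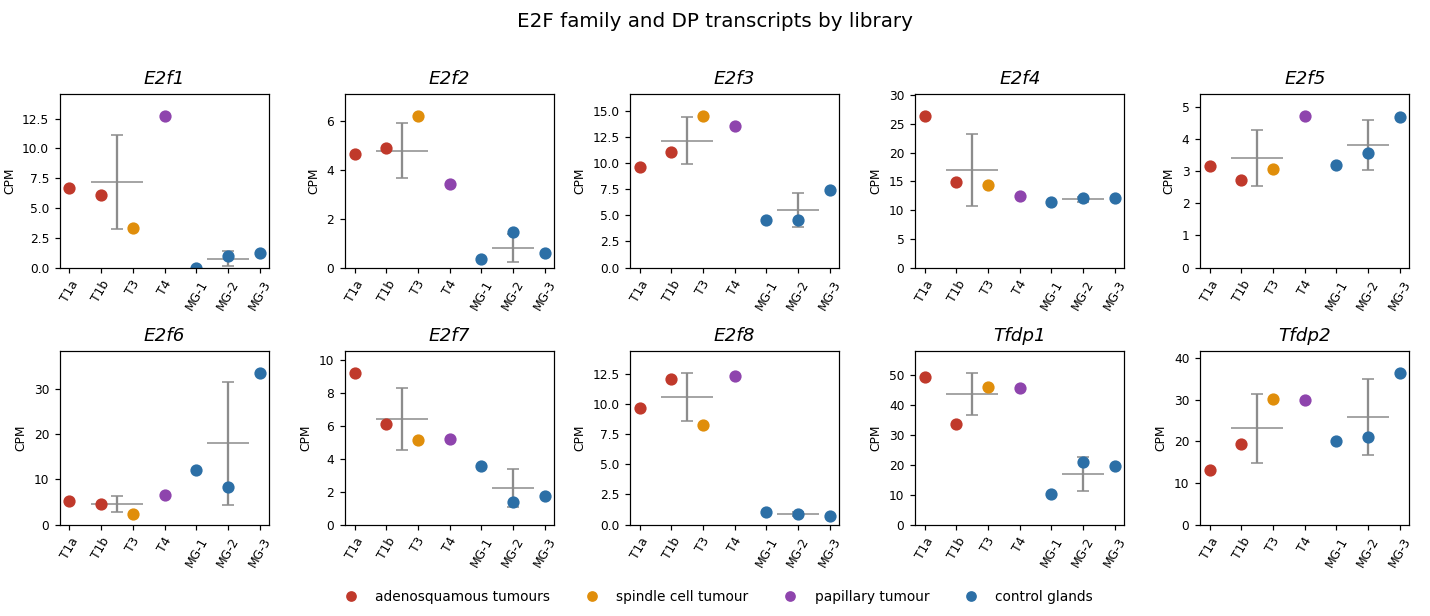
Level of each of the 10 family members in every library, in CPM on a linear axis from 0 in each panel, with tumours left of glands, 1 point per library, and grey bars for the mean and SD of each group. E2f8 lies at 8.28 to 12.4 CPM in the 4 tumours and at 0.711 to 1.06 CPM in the 3 glands, while E2f6 is the member whose tumours all lie below the glands.

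The largest difference among the members was in E2f8, the atypical E2F that represses activator targets late in S phase. E2f8 (ENSMUSG00000046179, chromosome 7, 48866429 to 48881596 on GRCm38) was at 9.70 CPM in T1a, 12.1 in T1b, 8.28 in T3 and 12.4 in T4, against 1.06, 0.851 and 0.711 CPM in MG-1, MG-2 and MG-3. The 4 tumours lay close together and the groups were far from overlapping. The mean was 10.6 ± 1.97 CPM in tumours and 0.874 ± 0.176 CPM in glands (SD, n = 4 and 3), a fold of 12.5 (log2 3.64, 95% interval 2.76 to 4.53, adjusted p = 0.00805). The gland values rest on 3, 27 and 15 counts in MG-1, MG-2 and MG-3. E2f8 was called in each of the 7 fits that left out 1 library, at log2 3.50 to 3.78 and adjusted p = 0.0128 to 0.0452. With MG-2 as the only control, a check chosen after seeing the data, the log2 fold change was 3.57. That fit called 0 of 16520 genes, so its p is no test of a single gene. The antisense transcript Gm2788 shares 610 exonic bases with E2f8, and since the kit does not mark strand, reads of that stretch cannot be assigned. The table gave Gm2788 1 to 4 counts in the tumours and 0 or 1 in the glands.

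E2f7, the other atypical member, also had every tumour above every gland but did not pass edgeR's test. Its level was 9.19 CPM in T1a, 6.12 in T1b, 5.12 in T3 and 5.23 in T4, against 3.54, 1.39 and 1.75 CPM in MG-1, MG-2 and MG-3. MG-1, the highest gland, has 10 counts of E2f7. The log2 fold change was 1.60 (SE 0.48, 95% interval 0.48 to 2.72, adjusted p = 0.0805), while limma-voom (0.0321) and DESeq2 (0.0071) called it higher. Its overlap with an antisense transcript, 1700020G17Rik, is 86 exonic bases, and that transcript had 0 counts in every library.

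Among the activators, E2f2 rose and E2f1 and E2f3 lay higher without passing edgeR's test, while DESeq2 called all 3 higher. E2f2 (ENSMUSG00000018983, chromosome 4, 136172394 to 136196057), an activator of S phase genes, was at 4.68 CPM in T1a, 4.90 in T1b, 6.21 in T3 and 3.41 in T4, against 0.354, 1.45 and 0.616 CPM in MG-1, MG-2 and MG-3. The lowest tumour was thus above the highest gland. The mean was 4.80 ± 1.14 CPM in tumours and 0.807 ± 0.572 CPM in glands (SD, n = 4 and 3), a fold of 5.39 (log2 2.43, 95% interval 1.14 to 3.72, adjusted p = 0.0400). The call was kept without MG-2 and without T4 and lost without each of the other 5 libraries, over a range of adjusted p = 0.0365 to 0.156. Without a filter on low counts its adjusted p was 0.093.

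E2f1, the founding member and the one tied to apoptosis as well as to the cell cycle, varied more among the 4 tumours than any other member, by the ratio of the highest to the lowest. Its level was 6.64 CPM in T1a, 6.12 in T1b, 3.35 in T3 and 12.7 in T4, against 0 CPM in MG-1, 1.01 in MG-2 and 1.23 in MG-3. The papillary tumour was the highest and the spindle cell tumour the lowest of the 4. In the shallow library MG-1 a count of 0 allows a level of up to 1.06 CPM (3 counts), which is close to the level in the other 2 glands, so E2f1 was not detectable in MG-1 at this depth. The mean was 7.20 ± 3.93 CPM in tumours and 0.747 ± 0.657 CPM in glands (SD, n = 4 and 3). The log2 fold change was 3.05 (SE 0.81, 95% interval 1.16 to 4.93, adjusted p = 0.0596), and it ranged from 2.55 to 3.45 when 1 library was left out. DESeq2 called E2f1 higher (adjusted p = 0.000292) and limma-voom did not (0.0699).

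E2f3, an activator with alternative promoters whose protein forms the gene counts do not separate, was at 9.62 CPM in T1a, 11.0 in T1b, 14.5 in T3 and 13.5 in T4, against 4.60, 4.51 and 7.39 CPM in MG-1, MG-2 and MG-3. The groups did not overlap. The mean was 12.2 ± 2.24 CPM in tumours and 5.50 ± 1.64 CPM in glands (SD, n = 4 and 3), and the log2 fold change of 1.13 (SE 0.33, 95% interval 0.36 to 1.91) had an adjusted p of 0.0767. DESeq2 called E2f3 higher (adjusted p = 0.00823) and limma-voom did not.

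E2f4, E2f5 and E2f6, the repressors that pair with DP, were not called by edgeR, and DESeq2 called E2f6 lower. E2f4, the main pocket protein carrier of resting cells, was at 12.4 to 26.3 CPM in tumours and at 11.3 to 12.2 CPM in glands. The value of 26.3 CPM belongs to T1a, while T4 at 12.4 CPM was only just above the highest gland. Its log2 fold change was 0.52 (95% interval -0.25 to 1.28, adjusted p = 0.332). E2f5, its close relative, was at 2.72 to 4.70 CPM in tumours and at 3.18 to 4.69 CPM in glands. Its groups overlapped, with a log2 fold change of -0.17 (95% interval -1.05 to 0.72, adjusted p = 0.801).

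E2f6 was the one member with every tumour below every gland. E2f6, a repressor that works with the Polycomb complex PRC1.6 and has no pocket protein binding site, was at 5.19 CPM in T1a, 4.63 in T1b, 2.27 in T3 and 6.52 in T4, against 12.0, 8.38 and 33.6 CPM in MG-1, MG-2 and MG-3. The glands differed widely among themselves, with MG-3 well above the other 2. The mean was 4.65 ± 1.78 CPM in tumours and 18.0 ± 13.6 CPM in glands (SD, n = 4 and 3), and the log2 fold change was -1.95 (95% interval -3.28 to -0.63, adjusted p = 0.0756). Without MG-3 it was -1.12 (adjusted p = 0.267), and with MG-2 alone as the control, where no gene was called, it was -0.90. Over the alternatives with at least 2 glands the adjusted p was 0.00991 (DESeq2) to 0.267. MG-3 and MG-1 are the glands with the high muscle marker sums of 28087 and 15174 CPM, and their part in the result was not tested. MG-2, whose muscle sum was 21.2 CPM, had 8.38 CPM of E2f6, above all 4 tumours.

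Of the DP partners, Tfdp1 rose and Tfdp2 did not pass the test. Tfdp1, the gene for DP1, the partner that gives an E2F its high affinity for DNA (chromosome 8, 13338751 to 13378448), was at 49.4 CPM in T1a, 33.5 in T1b, 45.9 in T3 and 45.4 in T4, against 10.3, 20.8 and 19.5 CPM in MG-1, MG-2 and MG-3. No tumour reached down to the glands. The mean was 43.5 ± 6.94 CPM in tumours and 16.9 ± 5.75 CPM in glands (SD, n = 4 and 3), a fold of 2.56 (log2 1.36, 95% interval 0.62 to 2.09, adjusted p = 0.0423). The call was lost when any 1 library was left out, at log2 1.13 to 1.53 and adjusted p = 0.055 to 0.125, and without a filter on low counts (0.0878). Tfdp2, the gene for the DP2 partner, was at 13.2 CPM in T1a, 19.3 in T1b, 30.1 in T3 and 29.9 in T4, against 20.2, 21.1 and 36.4 CPM in the glands. The groups overlapped and the log2 fold change was -0.16 (95% interval -1.05 to 0.72, adjusted p = 0.804).

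**Figure D2:**
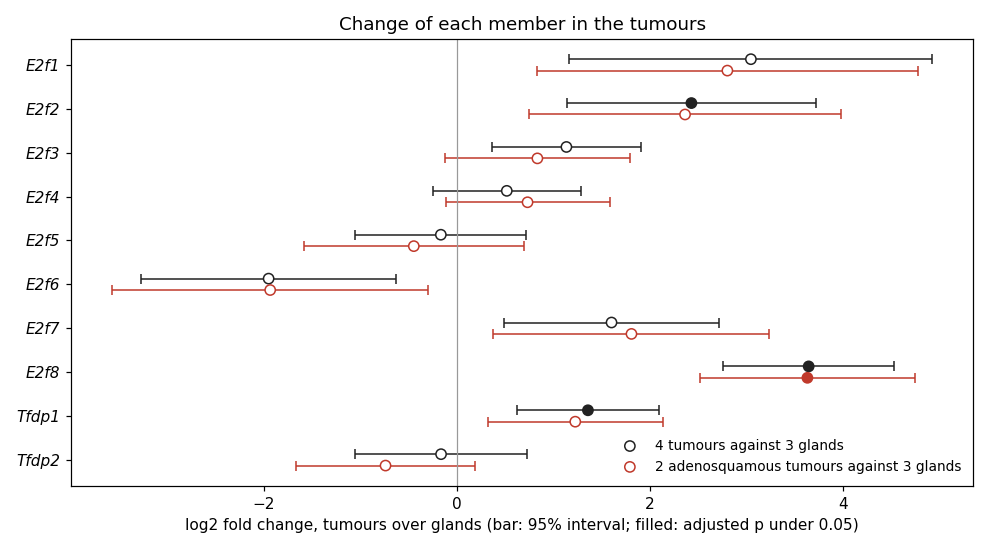
Log2 fold change of each family member in the 4 tumours against the 3 glands, and in the 2 adenosquamous tumours against the same glands, with 95% intervals from the edgeR fits. E2f8 is highest in both, at 3.64 and 3.63, and E2f6 is lowest, at -1.95 and -1.93.

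Set against the glands by themselves, the 2 adenosquamous tumours share the 3 glands with the comparison above and are part of its tumour group, so these values stand beside the others and are no second test. E2f8 had a log2 fold change of 3.63 (SE 0.46, adjusted p = 0.0189) and was the only member called. The call was kept without MG-1 or MG-2 and lost without MG-3, T1a or T1b, over adjusted p = 0.0242 to 0.0987. The fits without MG-3 and without T1b called 0 of all genes (3471 and 2994 at an unadjusted p under 0.05), and the fit without T1a called 0.308% of genes higher. E2f1 had 2.80 (adjusted p = 0.0794), E2f2 2.36 (0.0739), E2f7 1.81 (0.102) and Tfdp1 1.23 (0.0893). Both adenosquamous tumours were above every gland in 7 members, a pattern of 28.2% of all genes. They were below every gland for E2f5, E2f6 and Tfdp2, a pattern of 23.3% of all genes. The spindle cell and papillary tumours have 1 library each, so no test was made for them. For Tfdp2 both lay above the gland mean of 25.9 CPM, at 30.1 and 29.9 CPM, where T1a and T1b lay at 13.2 and 19.3 CPM.

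Levels per kilobase of all merged exons of a gene gave an order of the members, which depends on the length used. Merged exons span 14029 bases in Tfdp2, 5663 in E2f6 and 9009 in E2f7. The longest transcripts of these genes have 7354, 3018 and 5473 bases, so a shorter length would raise their levels. In the tumours Tfdp1 was first at 11.9 ± 1.89 CPM per kilobase, E2f4 was next at 6.93 ± 2.57 and then E2f1 at 2.28 ± 1.25 (SD, n = 4), with E2f3 at 2.24 ± 0.412, E2f8 at 1.95 ± 0.361, E2f5 at 1.91 ± 0.496 and Tfdp2 at 1.65 ± 0.594 not separated from E2f1 by more than their spread. E2f2 at 0.983 ± 0.234, E2f6 at 0.821 ± 0.314 and E2f7 at 0.712 ± 0.211 came last. In the glands E2f4 at 4.84 ± 0.191, Tfdp1 at 4.59 ± 1.57 and E2f6 at 3.18 ± 2.40 (SD, n = 3) led. E2f7 at 0.247 ± 0.128, E2f1 at 0.237 ± 0.208, E2f2 at 0.165 ± 0.117 and E2f8 at 0.161 ± 0.0324 were the 4 lowest and were not separated by more than their spread. By merged exon length E2f8 was thus among the lowest members in the glands and in the middle of the order in the tumours.

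**Figure D3:**
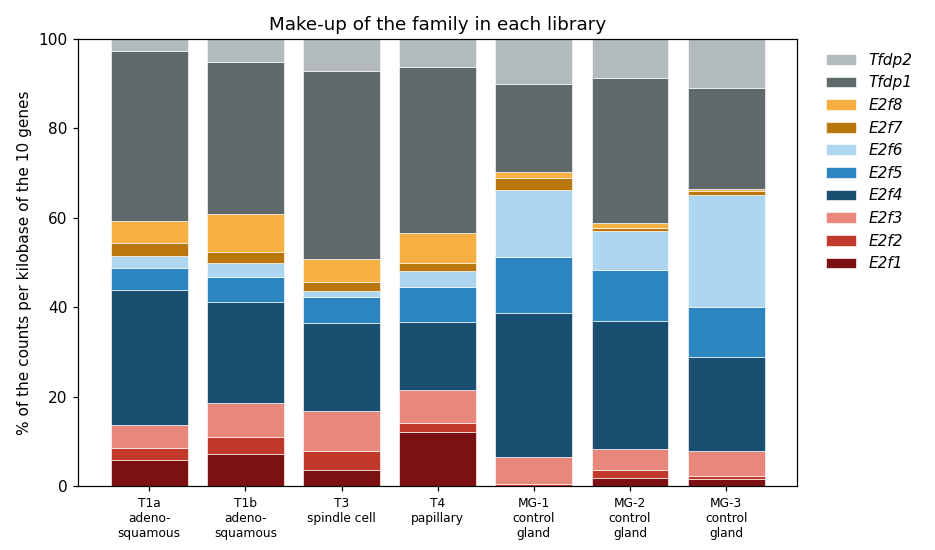
Share of the family's summed counts per kilobase taken by each of the 10 members in each library, in percent, stacked, with tumours left of glands. The activators E2f1 to E2f3 take 13.6% to 21.6% in tumours and 6.45% to 8.33% in glands, and E2f4 to E2f6 take 26.5% to 37.8% in tumours and 48.6% to 59.8% in glands.

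As shares of the summed level in each library, the family held a larger part of activators and of E2F7 and E2F8 transcripts in every tumour than in any gland. The activators made up 17.7% ± 3.31 of the family's CPM per kilobase in tumours and 7.58% ± 1.00 in glands (SD, n = 4 and 3; difference 10.1 points, exact permutation p = 0.0571, two-sided). E2f4, E2f5 and E2f6 together made up 30.6% ± 5.29 in tumours and 55.2% ± 5.83 in glands (difference -24.5 points, exact permutation p = 0.0571). E2f7 and E2f8 made up 8.58% ± 1.63 in tumours and 2.43% ± 1.48 in glands (difference 6.15 points, exact permutation p = 0.0571). For these 3 shares the groups did not overlap, and 0.0571 is the smallest p that 4 tumours against 3 glands allow, 0.0762 after adjustment over the 4 shares. The DP partners made up 43.1% ± 4.47 in tumours and 34.8% ± 5.91 in glands (difference 8.31 points, exact permutation p = 0.171) and the groups overlapped.

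The balance between activators and atypical repressors overlapped between the groups. The activators' CPM per kilobase was 1.73 times that of E2f7 plus E2f8 in T1a, 1.71 in T1b, 2.39 in T3 and 2.53 in T4, against 1.56, 4.66 and 5.78 times in MG-1, MG-2 and MG-3. The value of MG-1 is below all 4 tumours and rests on 0 counts of E2f1 and 3 of E2f8. E2f8 relative to Mki67, a marker of cycling cells, was 6.44% per kilobase in T1a, 9.33% in T1b, 3.78% in T3 and 6.40% in T4, against 23.1%, 5.56% and 14.1% in the glands. Relative to Mki67 the groups overlapped, and MG-1 again rests on 3 counts of E2f8. Mki67 itself was at 320 ± 74.5 CPM in tumours and 15.4 ± 11.2 CPM in glands (SD, n = 4 and 3).

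A list of the pocket proteins and the MuvB core that work with the E2Fs, with Mybl2 and Foxm1, held 10 genes. In it 2 genes were higher and 1 lower, against 3.9% and 4.57% of all genes. Its median log2 fold change was 0.47, against a median of 0.12. No MuvB core gene passed edgeR's test: Lin9 (adjusted p = 0.237), Lin37 (0.976), Lin52 (0.342), Lin54 (0.202) and Rbbp4 (0.233). Rb1, the retinoblastoma gene that holds the activators in check, fell to 26.0 CPM in T1a, 33.5 in T1b, 24.0 in T3 and 59.2 in T4, against 149, 143 and 94.9 CPM in the glands. The highest tumour was below the lowest gland, and the fold was 3.61 lower (log2 -1.85, SE 0.38, adjusted p = 0.0293). The Rb1 call was kept without T4 and lost without each of the other 6 libraries, at adjusted p = 0.0628 to 0.103. Rbl1, for the pocket protein p107, was at 20.8 ± 8.85 CPM in tumours and 7.73 ± 3.07 CPM in glands (adjusted p = 0.0831), and Rbl2, for p130, at 33.1 and 42.0 CPM (adjusted p = 0.560). Mybl2, for the B-Myb protein that joins the MuvB core in S phase, was at 6.96 ± 3.16 CPM in tumours and 0.263 ± 0.306 CPM in glands (log2 4.34, adjusted p = 0.0225). It and Foxm1, for a factor that takes over at mitotic genes (log2 3.98, adjusted p = 0.0292), were the 2 genes that rose. Mybl2 lost its call without MG-1, MG-3 or T1b (adjusted p = 0.0261 to 0.107 over the 7 libraries left out), and Foxm1 lost it without every library but T4 (0.0337 to 0.124).

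Of 14 genes for G1 cyclins, kinases and their inhibitors, 13 were tested, 1 rose and 1 fell, with a median log2 fold change of 0.49. With 3.9% of all genes higher and 4.57% lower, these counts are near the background. Ccnd1, for cyclin D1, the regulatory partner of the kinases that phosphorylate the retinoblastoma protein, rose to 116 CPM in T1a, 174 in T1b, 79.8 in T3 and 642 in T4, against 8.13, 17.7 and 18.8 CPM in the glands. The papillary tumour was far above the others, and without it the log2 fold change was 2.99 (adjusted p = 0.0153), where it was 4.08 (SE 0.88, adjusted p = 0.0343) in all 4. The call was lost without MG-1, MG-2, MG-3 or T1b, at up to 0.124. Cdkn1c, for the kinase inhibitor p57, fell to 2.07 ± 1.07 CPM in tumours, against 20.5 ± 3.77 CPM in glands (log2 -3.33, SE 0.57, adjusted p = 0.0179), and the call was lost without MG-1 (0.0625) or MG-3 (0.0719). Cdkn2a, the INK4A and ARF locus and an E2F target in its ARF form, was left out by the filter. Its counts were 278 in T1a, 45 in T1b, 5 in T3 and 5 in T4, and it was at 0 counts in all 3 glands. Most of the counts were thus in the 2 adenosquamous tumours.

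The genes that E2Fs are known to drive were higher in the tumours in their majority. Of 38 targets at the G1 to S step, all of them tested, 28 rose and none fell (none was lower at an unadjusted p under 0.05 or by DESeq2), with a median log2 fold change of 2.38, against 0.12 over all genes and 3.9% of genes called higher. In 33 of the 38, every tumour lay above every gland, a pattern held by 16.3% of all genes. Mcm10, a replication initiation factor, was at 9.47 ± 4.98 CPM in tumours and 0.365 ± 0.134 CPM in glands (log2 4.64, SE 0.61, adjusted p = 0.0101). Mcm5, a subunit of the replicative helicase, was at 32.5 ± 9.87 CPM in tumours and 2.72 ± 1.37 CPM in glands (log2 3.54, adjusted p = 0.0103). Ccne1, for cyclin E1, was at 4.66 ± 0.966 CPM in tumours and 1.03 ± 0.169 CPM in glands (log2 2.18, adjusted p = 0.0243), a call lost without every library but T4 (0.0333 to 0.102) and without a filter on low counts (0.0784). Mcm10 and Mcm5 lost theirs without MG-3 (0.0564 each). Genes that did not pass, named after their values were seen, included Ccne2, for cyclin E2, at log2 0.76 (adjusted p = 0.410), and Slbp, for the histone mRNA binding protein, at log2 0.28 (adjusted p = 0.608).

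**Figure D4:**
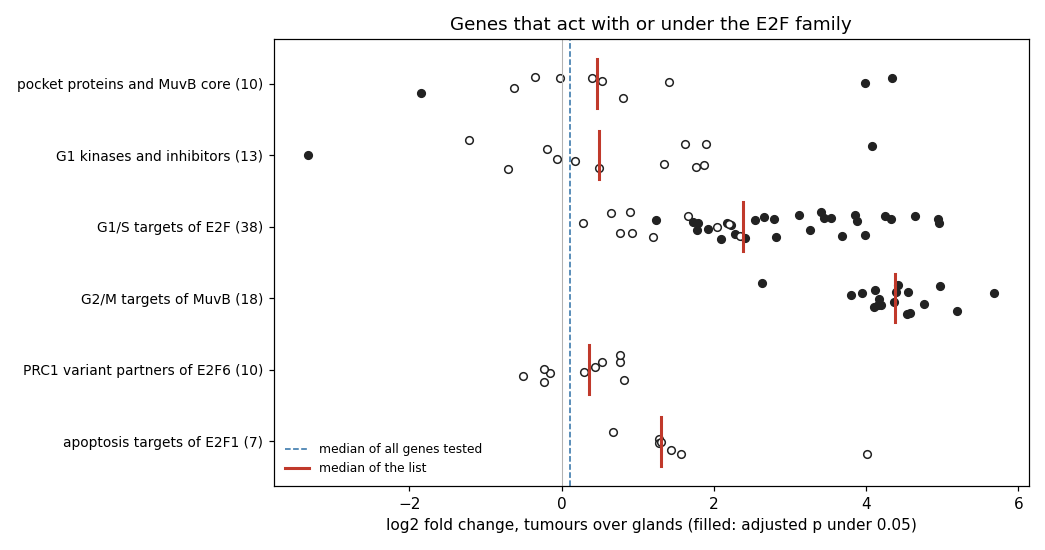
Log2 fold change of each tested gene in 6 lists around the E2F family, in the 4 tumours against the 3 glands. Filled points have an adjusted p under 0.05, red bars are list medians and the dashed line is the median of all genes tested, 0.12. The 18 genes of the G2 to M step are all called higher, and the 38 targets at the G1 to S step include 28 called higher and none called lower.

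All 18 of the later MuvB targets at the G2 to M step rose, with a median log2 fold change of 4.38. Over all genes tested, 3.9% were called higher and the median was 0.12. Cenpf, a kinetochore gene, was at 63.2 ± 21.3 CPM in tumours and 3.66 ± 1.45 CPM in glands (log2 4.17, SE 0.43, adjusted p = 0.00805), and Ccnb1, for cyclin B1, was at 14.7 ± 4.94 CPM in tumours and 0.216 ± 0.187 CPM in glands (log2 5.68, SE 0.61, adjusted p = 0.00806). In MG-1, 9 of the 38 G1 to S genes and 11 of the 18 G2 to M genes were at 0 counts. The count of calls moved with the libraries used, in these lists and over all genes. All genes called higher were 552 with all 7 libraries, 165 without MG-1, 182 without MG-2, 23 without MG-3 (0.155% of 14835), and 369, 193, 254 and 577 without T1a, T1b, T3 and T4 in turn. Without MG-1, 12 of the 38 G1 to S targets passed, without MG-2 13 passed, without MG-3 0 passed (31 at an unadjusted p under 0.05), and without T1a, T1b, T3 and T4 in turn 18, 13, 16 and 23 passed. For the 18 G2 to M genes, 4 passed without MG-3 and 16 to 18 passed without any other single library. The adipocyte and muscle marker sums differ between the same groups, and their part in these calls was not tested. MG-2 had a muscle sum of 21.2 CPM and the highest leukocyte sum of the glands, 471 CPM. Its G1 to S sum was 236 CPM, against 661 to 1175 CPM in the tumours. Its G2 to M sum was 55.8 CPM, against 551 to 842 CPM in the tumours. The part of leukocyte RNA in these levels was not tested. The letters of the cell cycle homology region stood before 8 of 16 G2 to M genes with an entry (50%). They stood before 6 of 30 G1 to S targets, against 19.6% of all genes. E2F letters stood before 11 of 30 G1 to S targets (36.7%) and 1 of 16 G2 to M genes, against 2.16% of all genes.

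Lists tied to single members had no gene called by edgeR. None of the 10 PRC1.6 subunits that work with E2F6 passed, at a median log2 fold change of 0.37. Of these, 2 were higher at an unadjusted p under 0.05, against 15.8% of all genes. DESeq2 called 1 higher, against 12.8% of all genes. Cbx3, for the heterochromatin protein HP1 gamma, was at 66.6 ± 18.9 CPM in tumours and 38.9 ± 0.855 CPM in glands (log2 0.77, adjusted p = 0.115). Of 8 apoptosis genes that E2F1 is known to drive, 7 were tested and none passed, 5 had an unadjusted p under 0.05, and DESeq2 called 4 higher. Bcl2l11, for the pro-apoptotic protein BIM, was at 22.2 ± 8.66 CPM in tumours and 9.11 ± 1.96 CPM in glands (log2 1.28, adjusted p = 0.0773). None of the 5 germline genes repressed by E2F6 and none of the 5 multiciliated cell partners of E2F4 and E2F5 had enough counts to be tested.

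**Figure D5:**
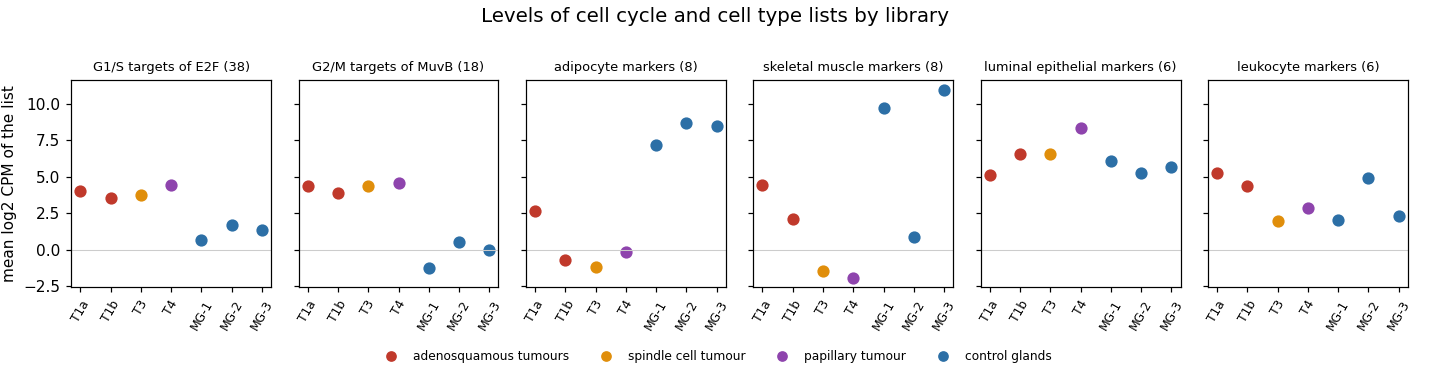
Mean log2 CPM of the G1 to S targets, the G2 to M targets and 4 marker lists in every library, 1 point per library, with tumours left of glands. The adipocyte mean lies at -1.21 to 2.65 in tumours and at 7.19 to 8.65 in glands, and the muscle mean is 9.72 in MG-1, 0.89 in MG-2 and 10.94 in MG-3.

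The genes whose level was most like that of each member over the 7 libraries were listed by Pearson's r of log2 CPM among 8535 genes with a mean over 3 on that scale. For E2f8 these were Actl6a (r = 0.993), Ncapg (0.990) and Ssbp4 (0.988), for E2f2 Marcksl1 (0.992), Cd2bp2 (0.992) and Pclaf (0.990), and for E2f1 Jund (0.996), Ier5 (0.994) and Ranbp3 (0.989). For Tfdp1 they were Ddost (0.996), Hist1h3f (0.995) and Nhp2 (0.994), where the count of the histone gene, 1 of many near-identical copies, is uncertain. For E2f6 they were Osbpl9 (0.980), Rock2 (0.978) and Kpna1 (0.969). E2f4 was nearest to Yap1 (0.978), Noc3l (0.956) and Sh3rf1 (0.950), and E2f5 to Faf1 (0.988), Slc25a3 (0.969) and Crbn (0.951). Tfdp2 had the lowest values, with Usf3 (0.946), Marf1 (0.943) and Tmed4 (0.935). All points come from the same 7 libraries, which fall into tumours and glands, so a high r is a description of these libraries.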

How the data were processed

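RNA of 4 mammary tumours and 3 control glands was sequenced. Per the labels' protocols, Trizol RNA went into TruSeq v2 libraries, a kit without strand marking. Per the submitters' processing notes, STAR 2.5, RSEM 1.3, limma and GRCm38 were used. The deposited column is headed TPM, but its sums differ between libraries, from 5148436 to 35631302, and 2.34% to 6.14% of the 50600 values of a table, zeros included, are not exactly whole. It was therefore read as the authors' expected counts, one estimated count per gene, and rounded to whole numbers. Genes were kept by filterByExpr (minimum count 10, total 15) and tested with edgeR 4.0.16 (quasi-likelihood F test, TMM) in R 4.3.3, with Benjamini-Hochberg adjustment over all genes tested. CPM uses TMM library sizes. Levels per kilobase use exon lengths of GENCODE M21. Exact permutation tests used SciPy 1.17.1. Alternatives were DESeq2 1.42.0, limma 3.58.1 with voom, other scalings and filters, removal of mitochondrial genes, and each library left out in turn. The coefficient of variation by edgeR's common dispersion was 0.600 in 7 libraries. The 4 tumours were 1 group in that fit, so the value includes differences between tumour types. It was 0.504 with the adenosquamous tumours and glands alone. In each list the text names the 2 genes with the smallest adjusted p in the direction of more calls, the largest call the other way, or with no call the gene of smallest p. Rb1, Rbl1, Rbl2, Ccnd1, Ccne1, Cdkn2a and Mki67 are always named. Members, lists and rules were chosen with earlier results of these data known. Intervals and floors of a count cover counting error only.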

Additional observations from a re-analysis of the deposited data

Results flagged for a closer look

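Tfdp2 lay below the gland mean in both adenosquamous tumours and above it in the other 2. On the log2 CPM scale it was at -0.912 in T1a, -0.366 in T1b, 0.273 in T3 and 0.261 in T4, each against the gland mean. E2f5 lay below the gland mean in both adenosquamous tumours, at -0.248 in T1a and -0.45 in T1b, and above it in T4, at 0.313. For both genes the difference between tumour types was not tested, because T3 and T4 are the only libraries of their types. For both genes the values of tumours and glands overlapped.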

How the results depend on the processing

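The 10 members gave 3 higher and 0 lower in the tumours. DESeq2 called 6 higher and 1 lower, limma-voom called 4 higher, and a fit with no filter on low counts called 1 higher. With the adenosquamous tumours alone, 1 was higher and 0 lower, where DESeq2 called 5 and 1, limma-voom 3 higher, no filter 2 and a filter of 1 CPM in 3 libraries 0 (E2f8 was not tested there). With MG-2 as the only control, chosen after seeing the data, 0 members and 0 genes of the pocket protein, G1 kinase, G1 to S and G2 to M lists were called. Those fits called 0 of all genes, so they say nothing about any list. DESeq2 and limma-voom each called 3 G1 kinase genes higher in place of 1. DESeq2 called 1 PRC1.6 gene and 4 apoptosis genes higher in place of 0. Of all genes tested, edgeR called 3.9% higher, DESeq2 12.8% and limma-voom 4.46%. The cause of these differences was not tested. Leaving out 1 library, which also cut the calls over all genes from 552 higher to as few as 23, gave 1 to 2 members higher in tumours and 0 to 1 in adenosquamous tumours. In the list with the pocket proteins it gave 0 to 2 genes higher, which were Mybl2 and Foxm1, and 0 to 1 lower. It gave 0 to 2 G1 kinase genes higher and 0 to 1 lower. Of the targets called higher it gave 0 to 23 at G1 to S, 4 to 18 at G2 to M and 0 to 1 apoptosis genes. Of the values with a sign, E2f5 ranged from -0.43 to 0.016 (without MG-3) with 1 library left out, and Tfdp2 from -0.37 to 0.17 (without MG-3), with 0.06 without T1a. Tfdp2 was at 0.071 with MG-2 as the only control. Among single genes under the alternatives, 420 values kept their side and direction, 16 gained a call and 63 lost one. The low depth of MG-1, T1a, T1b and T3 limits genes of few counts, E2f1 in MG-1 above all. No paired analysis was possible because no label matches a tumour to a gland.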
